A study of Mus musculus with 15 samples.

Results

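TGF-beta and BMP signalling genes were examined in mouse skin as 1 set of 43 genes, out of 18929 genes in the table. The set was a list of names by role: the ligands, the activin subunits, their receptors, the extracellular antagonists, 2 matrix products, the Smads and the Id genes. No measured value entered the choice of the 43 names, although earlier results of these data were known when the list was made. Of the 43 genes, 42 were abundant enough to be tested, among 15369 tested genes in all. Gdf15, a stress-induced ligand, was the exception, with a mean of 0.293 CPM (counts scaled to a common library size) and no sample above 0.618 CPM.

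Bulk RNA of the skin of BALB/c mice was sequenced in 15 samples, in 5 groups of 3. All mice were males, 4 to 6 weeks old by the study's methods, and wild type. A full-thickness wound of 10 mm or 15 mm was cut in the back and filled by bead-jet printing with drops of Matrigel, a basement membrane gel. The acellular groups received empty beads. In the high cell density bead groups (HDB), mesenchymal stem cells (MSCs) from human umbilical cord were carried in part of the beads, 84000 cells in a 10 mm wound and 180000 in a 15 mm wound, with empty beads between them. The fifth group was normal skin, without wound or beads. For the sequenced skin the methods state 4 weeks of implantation, while the wound experiment ended on day 21. The cells were human and the table lists mouse genes, and how reads of human origin were handled is not given in the sources used here. The labels do not say that the 3 samples of a group came from 3 animals, so the p-values measure the spread between these samples, which may be partly technical.

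Ligands of the TGF-beta family bind pairs of type I and type II receptor kinases at the cell surface. TGF-beta and activin receptors phosphorylate Smad2 and Smad3, whereas BMP receptors phosphorylate Smad1, Smad5 and Smad9, and both kinds of Smad enter the nucleus with Smad4. Noggin, chordin, gremlin and follistatin hold ligands away from their receptors, Smad6 and Smad7 switch receptors off, and the Id genes are direct targets of BMP signalling. In skin, TGF-beta is known for driving fibroblasts to lay down scar matrix, and the balance of BMP and noggin is known for timing the growth of hair follicles.

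The DNA just upstream of 4 members whose levels differed between wounds and normal skin is shown first, because Smads bind short motifs in such DNA. The genes were picked after their values were seen: Id2 and Smad1 were higher in wounds, and Tgfbi and Chrd were lower. The windows are RefSeq's, on build GRCm38.p6, and each is shown 5′ to 3′ on the strand of its gene, from 250 bases upstream of the start site up to the first annotated exon base. Capitals mark CAGAC, the Smad box, also read as GTCTG on the other strand, and GGCGCC, a GC-rich BMP Smad type of motif that reads the same on both strands. The motifs do not overlap in the windows shown.
Id2, chr12:25096254-25096342, minus strand: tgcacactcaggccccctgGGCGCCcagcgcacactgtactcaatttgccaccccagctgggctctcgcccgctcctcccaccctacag
Smad1, chr8:79399519-79399678, minus strand: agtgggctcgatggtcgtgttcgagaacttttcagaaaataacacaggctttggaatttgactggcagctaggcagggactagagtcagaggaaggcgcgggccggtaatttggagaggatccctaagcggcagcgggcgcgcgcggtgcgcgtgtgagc
Tgfbi, chr13:56609336-56609522, plus strand: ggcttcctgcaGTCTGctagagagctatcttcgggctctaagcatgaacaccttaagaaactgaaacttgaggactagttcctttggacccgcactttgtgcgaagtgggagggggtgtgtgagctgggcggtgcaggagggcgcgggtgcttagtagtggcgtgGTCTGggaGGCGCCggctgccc
Chrd, chr16:20732877-20733126, plus strand: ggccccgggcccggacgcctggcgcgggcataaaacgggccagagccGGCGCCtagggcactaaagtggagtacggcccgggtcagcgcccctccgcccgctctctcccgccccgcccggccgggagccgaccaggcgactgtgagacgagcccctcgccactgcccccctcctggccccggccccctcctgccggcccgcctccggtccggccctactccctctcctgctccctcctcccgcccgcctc

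The Tgfbi window held 2 Smad boxes, both as GTCTG, with a GGCGCC a few bases after the second. Id2 and Chrd each held 1 GGCGCC and no Smad box, and Smad1 held neither. Of the 43 members, 30 had a window of 250 bases in the RefSeq table. The Smad box was present in 12 of these 30, which is 40%, beside 42.2% of all 27025 promoter windows of that length. GGCGCC was present in 9 of the 30, which is 30%, beside 9.57% of all windows and 12.1% of the 17492 windows of protein-coding genes. The members' windows were also richer in G and C, with a median of 68% beside 52% for all windows and 55.2% for those of protein-coding genes. These matches describe letters in a window and were not tested for binding.

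The libraries held between 15840551 and 18404188 counts, so depth differed little between groups. Samples of normal skin resembled each other most (Pearson's r of log2 CPM between replicates, across genes, 0.983 to 0.989) and samples of acellular 15 mm wounds least (0.853 to 0.921). Acellular 15 mm replicate 1 stood apart: it held the highest value of all 15 samples for 11 members and the lowest for another 11. Its hair shaft keratins and regulators summed to 10097 CPM, against 10.4 to 13.7 CPM in normal skin. Calls lost and values moved most without this library are given beside the results.

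In normal skin, the members ranged widely in level when counts were divided by transcript length (CPM per kilobase of the longest annotated transcript). Tgfbi, a TGF-beta induced matrix protein, had the highest level at 198 ± 44.97 (SD, n = 3) CPM per kb. It was followed by Fstl1, a secreted follistatin-like protein, at 89.2 ± 29.1 (SD, n = 3) CPM per kb. Id3 at 53.4 ± 6.33 and Id1 at 39 ± 1.26 came next, ahead of Smad4 at 32 ± 1.13 CPM per kb. The BMP receptor Bmpr1a (27.3 ± 1.15) and the TGF-beta receptor Tgfbr2 (26.95 ± 6.34) lay within 1 SD of each other. Among the ligands, Bmp4 was the highest at 19.3 ± 1.37 and Tgfb1 followed at 11.3 ± 1.38 CPM per kb. The lowest levels were those of Gdf15 (0.118 ± 0.0270), Smad9 (0.520 ± 0.0598) and Bmp5 (0.697 ± 0.209).

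The first question was how the pathway stood in treated wounds compared with intact skin. Between the 4 wound groups, taken as their mean, and normal skin, 13 members differed, 31.0% of those tested. Of these, 5 rose (Inhbb, Bmp7, Fst, Id2 and Smad1) and 8 fell (Acvrl1, Chrd, Bmp6, Tgfbi, Nog, Smad3, Tgfbr3 and Acvr2b). The background was 30.9% of all genes tested (14.2% up and 16.7% down), so as a set the members changed about as often as other genes. The median log2 fold change of the 42 members was 0.02, beside 0.04 over all genes. Genes were tested by the quasi-likelihood method of edgeR, adjusted by Benjamini-Hochberg over all tested genes, and a gene counts as changed, or as passing, where the adjusted p is under 0.05 in that fit of all 15 samples. Other settings are named where they are meant. All values below are TMM-normalized CPM, and fold changes are log2 values of wounds over normal skin unless stated otherwise. In bulk skin, fewer cells of a type and less RNA per cell cannot be told apart.

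Of these changes, 4 passed in all 15 fits that left out 1 sample and under each other setting tried: the falls of Acvrl1 and Nog and the rises of Smad1 and Id2. The samples of these 4 genes did not overlap between wounds and normal skin, nor did those of Inhbb and Smad5, both higher, and of Tgfbi and Smad3, both lower. That is 4 of 42 members in each direction, beside 9.86% of all genes higher and 11.1% lower. With normal replicate 3 left out, only Acvrl1, Nog, Smad1 and Id2 passed, which is 9.52%, beside 11.9% of all genes. With acellular 15 mm replicate 1 left out, 21 members passed, which is 50%. Over all genes the calls then went from 4746 to 6229, which is 40.1%. The normal group is shared by every comparison with normal skin, so the comparisons below are not independent of each other.

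**Figure D1:**
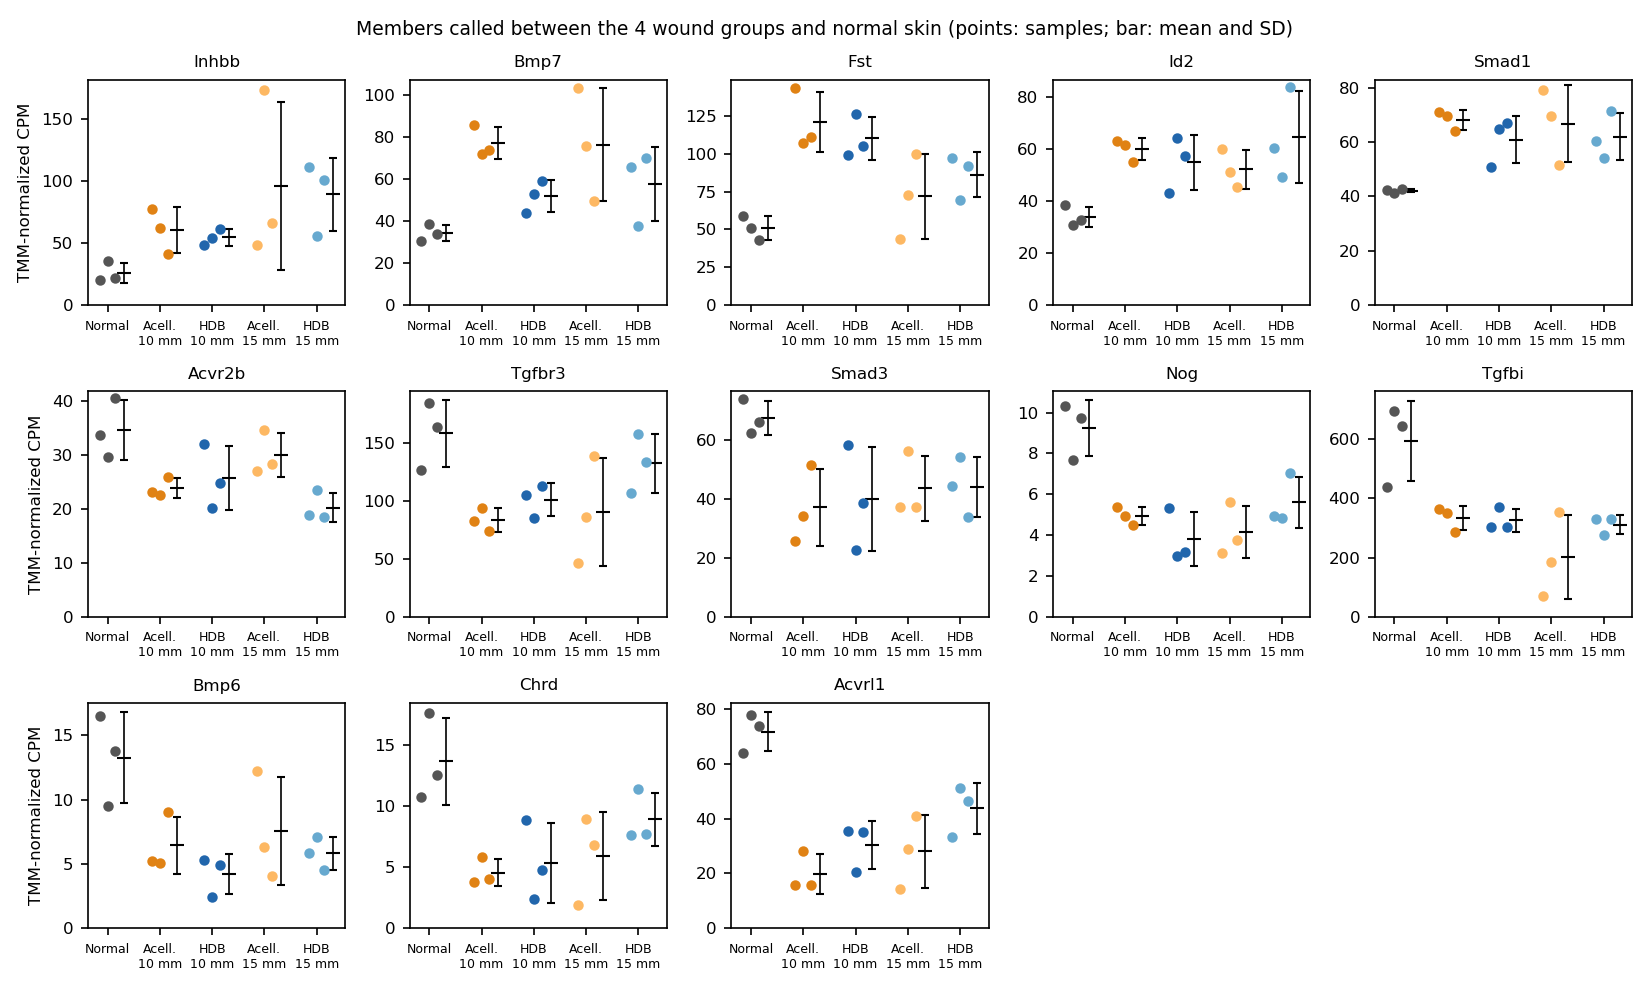
Members that differed between wounds and normal skin. Each panel plots 1 gene in TMM-normalized CPM on a linear axis from 0, by group; points are the 3 samples and the bar beside them is the mean with its SD. Acvrl1 and Nog lie below normal skin in all 12 wound samples, and Smad1 and Id2 above it.

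Among the TGF-beta ligands, none of the 3 passed in any comparison with normal skin when all samples were used. Tgfb1, the isoform best known in scarring, was measured at 28.6, 32.7 and 25.7 CPM in normal skin. It was at 34.5, 41.8 and 27.8 CPM in acellular and 28.5, 33.3 and 41.3 CPM in HDB wounds of 10 mm. At 15 mm, its acellular samples were at 28, 47.4 and 42.5 CPM and its HDB samples at 42.2, 38.98 and 41.6 CPM. The HDB 15 mm samples all lay above normal skin and the other groups overlapped with it, and the log2 fold change over all wounds was 0.36 (SE 0.167, adjusted p = 0.117). Without acellular 15 mm replicate 1, Tgfb1 passed upward over all wounds and in acellular 15 mm wounds, and with only the groups compared it passed in HDB 15 mm wounds. Tgfb2 ranged from 9.24 to 45.5 (median 23.9) CPM in wounds, with all 4 group estimates below normal skin. Tgfb2 passed downward in acellular 15 mm wounds without replicate 3, and in acellular 10 mm wounds with only the groups compared. Tgfb3 ranged from 15.6 to 51.2 (median 34.3) CPM, with 2 group estimates above and 2 below.

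Of the 7 BMP and GDF ligands tested, Bmp7 rose and Bmp6 fell. Bmp7, a ligand of epithelium and follicles, was at 30.7, 38.7 and 33.9 CPM in normal skin. In 10 mm wounds it was at 85.97, 72.05 and 74.1 CPM with acellular beads and 43.8, 52.8 and 59.1 CPM with HDB. At 15 mm it was at 104, 75.9 and 49.9 CPM with acellular beads and 65.6, 37.6 and 70.4 CPM with HDB. Only HDB 15 mm replicate 2 fell within the normal range. The log2 fold change was 0.91 (SE 0.221, adjusted p = 0.0106), and it no longer passed without normal replicate 1 or normal replicate 3.

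Bmp6, which is known for its part in iron control and in the epidermis, was at 16.5, 9.51 and 13.8 CPM in normal skin. It was at 5.25, 5.11 and 9.002 CPM in acellular and 5.27, 2.42 and 4.89 CPM in HDB wounds of 10 mm. In the larger wounds, the values were 12.2, 6.30 and 4.09 CPM with acellular beads and 5.83, 7.09 and 4.52 CPM with HDB. All wound samples lay below the normal range except acellular 15 mm replicate 1. The log2 fold change was -1.17 (SE 0.305, adjusted p = 0.0144), which also did not hold without normal replicate 1 or 3. Of the 4 groups on their own, HDB 10 mm passed, at -1.66 (SE 0.427, adjusted p = 0.031). That call held in 2 of the 6 fits that left out a sample of those groups.

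Bmp3, a BMP that opposes other BMPs, was at 23.8, 22.7 and 18.9 CPM in normal skin. It was at 21.3, 16.8 and 18 CPM in acellular and 13.8, 12.3 and 10.5 CPM in HDB wounds of 10 mm. The 15 mm samples were at 5.95, 15.8 and 12.8 CPM in the acellular and 21.4, 14.2 and 12.5 CPM in the HDB group. Its fall passed in acellular 15 mm wounds, at -0.92 (SE 0.303, adjusted p = 0.0381), where the lowest value was that of replicate 1. Without that replicate it was -0.61 and did not pass, and over all wounds it was -0.61 (SE 0.228, adjusted p = 0.061). Bmp2 passed in acellular 10 mm wounds (log2 fold change 1.18, SE 0.383, adjusted p = 0.0473), but not in any fit that left out a sample of the 2 groups. Bmp4, Bmp5 and Gdf10 did not pass with all samples in edgeR, and their wound samples ranged from 23.6 to 42.2 (median 30.3), 0.215 to 8.37 (median 1.01) and 3.71 to 38.6 (median 9.04) CPM. By DESeq2, Bmp4 was called lower over all wounds and in HDB 15 mm wounds, and Gdf10 higher in HDB 15 mm wounds.

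The activin subunit gene Inhbb had the highest log2 fold change of the 42 tested members. Its product forms activin B, which signals through Smad2 and Smad3. Inhbb was at 20.6, 35.6 and 22.1 CPM in normal skin. It was at 77.8, 62 and 41.2 CPM in acellular and 48.4, 54.1 and 61.7 CPM in HDB wounds of 10 mm. With acellular beads, 15 mm wounds were at 48.9, 173 and 66.4 CPM, and with HDB they were at 111, 55.8 and 101 CPM. Wound and normal samples did not overlap, the 12 wound samples being higher, although the values within a group differed up to severalfold. The log2 fold change was 1.48 (SE 0.376, adjusted p = 0.0129), a 2.79-fold difference, and it did not pass without normal replicate 1 or 3. Inhba, the subunit of activin A, ranged from 5.71 to 25.7 (median 13.5) CPM in wounds and was at 7.80, 9.91 and 9.93 CPM in normal skin, and did not pass.

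Among the 6 type I receptors, Acvrl1 fell. Acvrl1 (ALK1, chr15:101128522-101145336) is the type I receptor through which endothelial cells respond to circulating BMPs. It was at 63.8, 77.6 and 73.6 CPM in normal skin. It was at 15.6, 28.2 and 15.8 CPM in acellular and 35.6, 20.4 and 35.2 CPM in HDB wounds of 10 mm. In 15 mm wounds it was at 14.3, 28.9 and 40.9 CPM with acellular beads and 33.3, 51.2 and 46.5 CPM with HDB. All 12 wound samples were below all 3 normal samples, and the log2 fold change was -1.29 (SE 0.256, adjusted p = 0.00486). By group, the fall was -1.85 (SE 0.363, adjusted p = 0.00905) with acellular beads at 10 mm and -1.35 (SE 0.357, adjusted p = 0.0162) at 15 mm. With HDB it was -1.24 (SE 0.356, adjusted p = 0.0421) at 10 mm, and 15 mm wounds did not pass at -0.72 (SE 0.352, adjusted p = 0.212). The call in acellular 15 mm wounds was lost without normal replicate 3. The call in HDB 10 mm wounds held in 1 of the 6 fits that left out a sample of those groups, and was lost in a fit blocked on replicate number (adjusted p = 0.0556).

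Endothelial markers moved with it. All 6 markers fixed for endothelium (Pecam1, Cdh5, Kdr, Tek, Emcn and Vwf) fell in wounds, with a median log2 fold change of -1.61. Their summed level was 88.03 to 375 CPM in wounds and 495 to 585 CPM in normal skin, and none of the markers was at 0 in any sample. Eng, the endothelial coreceptor that works with Acvrl1, was at 90.8, 91.6 and 86.7 CPM in normal skin and ranged from 21.1 to 64.9 (median 40.4) CPM in wounds, a log2 fold change of -1.19 (SE 0.201, adjusted p = 0.00252). The part of vessel content in the fall of Acvrl1 was not tested.

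Bmpr1a and Bmpr1b are both type I receptors for BMPs. Bmpr1a was at 167, 155 and 166 CPM in normal skin, 216, 166 and 210.1 CPM in acellular and 199, 178 and 176 CPM in HDB wounds of 10 mm. At 15 mm, its acellular samples were at 261, 275 and 166 CPM and its HDB samples at 179, 174 and 173 CPM. It passed in acellular 15 mm wounds, at 0.53 (SE 0.168, adjusted p = 0.0347), where replicate 3 lay within the normal range. The call held in 1 of the 6 fits that left out a sample of those groups. Bmpr1b was far lower, at 5.55, 2.88 and 4.83 CPM in normal skin. It was at 1.43, 1.07 and 1.99 CPM in acellular and 2.90, 3.12 and 2.17 CPM in HDB wounds of 10 mm. In the larger wounds, the values were 0.794, 4.32 and 1.38 CPM with acellular beads and 2.51, 2.73 and 3.28 CPM with HDB. It passed in acellular 10 mm wounds, at -1.56 (SE 0.515, adjusted p = 0.0494), and not in any fit that left out a sample of the 2 groups. The TGF-beta receptor Tgfbr1 passed in acellular 15 mm wounds (log2 fold change 0.44, SE 0.125, adjusted p = 0.0226), and Acvr1 and Acvr1b did not pass with all samples in edgeR. The Tgfbr1 call was lost without any 1 of the normal samples. By DESeq2, Acvr1 was called lower over all wounds and in both 10 mm groups. The Bmpr1a call was lost with the transcript length trend removed (adjusted p = 0.0755).

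Among the type II and III receptors, Acvr2b and Tgfbr3 fell. Acvr2b, an activin receptor, was at 33.7, 29.7 and 40.6 CPM in normal skin. It was at 23.2, 22.5 and 25.9 CPM in acellular and 32.1, 20.2 and 24.8 CPM in HDB wounds of 10 mm. The 15 mm samples were at 26.9, 34.6 and 28.2 CPM in the acellular and 18.9, 23.4 and 18.5 CPM in the HDB group. The groups overlapped, and the log2 fold change of -0.49 (SE 0.139, adjusted p = 0.0208) did not hold without normal replicate 1 or 3. Tgfbr3 (betaglycan), the coreceptor that presents TGF-beta 2, was at 127, 184 and 163 CPM in normal skin. It was at 82.2, 93.95 and 73.6 CPM in acellular and 105, 85.2 and 113 CPM in HDB wounds of 10 mm. With acellular beads, 15 mm wounds were at 46.3, 85.9 and 138 CPM, and with HDB they were at 106, 157 and 133 CPM. Its fall of -0.66 (SE 0.230, adjusted p = 0.0467) lay near the threshold and passed in only 3 of the 15 fits that left out 1 sample.

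Acvr2a, the sister of Acvr2b, was at 61.8, 54.4 and 60.6 CPM in normal skin, 79.7, 61.7 and 78.1 CPM in acellular and 73.3, 84.7 and 73.1 CPM in HDB wounds of 10 mm. At 15 mm, its acellular samples were at 85.9, 85.7 and 63.1 CPM and its HDB samples at 61.5, 59.7 and 50.99 CPM. Of the 4 groups it passed in acellular 15 mm wounds (log2 fold change 0.41, SE 0.143, adjusted p = 0.0481), and no longer with the transcript length trend removed (adjusted p = 0.117) or with the replicate block (adjusted p = 0.0643). It held in 1 of the 6 fits that left out a sample of those groups. Bmpr2, the main type II receptor for BMPs, had the highest mean count of this group, just above Tgfbr2. It was at 162, 157 and 179 CPM in normal skin and ranged from 132 to 213 (median 153) CPM in wounds, with a log2 fold change of -0.07 (SE 0.101, adjusted p = 0.643). Tgfbr2 did not pass with all samples in edgeR, and all 4 of its group estimates were below normal skin. It was called lower over all wounds and in both acellular groups by DESeq2, and also by edgeR with the replicate number as a block.

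The BMP antagonists Nog and Chrd fell, whereas Fst rose. Nog (noggin, chr11:89300638-89302559), which traps BMPs and is needed for hair growth, was at 10.3, 7.70 and 9.73 CPM in normal skin. It was at 5.37, 4.94 and 4.50 CPM in acellular and 5.33, 2.96 and 3.17 CPM in HDB wounds of 10 mm. At 15 mm it was at 3.12, 5.60 and 3.77 CPM with acellular beads and 4.91, 4.85 and 7.06 CPM with HDB. Each of the 12 wound samples was below the 3 normal ones, with a log2 fold change of -1.01 (SE 0.212, adjusted p = 0.00583). Noggin's transcript was scarce, at about 9.25 ± 1.38 (SD, n = 3) CPM in normal skin.

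Chrd (chordin), a second BMP trap, was at 10.7, 17.6 and 12.5 CPM in normal skin. It was at 3.77, 5.78 and 4.03 CPM in acellular and 8.82, 2.37 and 4.78 CPM in HDB wounds of 10 mm. In the larger wounds, the values were 1.93, 8.93 and 6.80 CPM with acellular beads and 7.60, 11.4 and 7.68 CPM with HDB. Only HDB 15 mm replicate 2 reached the normal range. The log2 fold change was -1.19 (SE 0.376, adjusted p = 0.0315), and it passed in 9 of the 15 fits that left out 1 sample. Fst (follistatin), which binds activins, was at 58.8, 50.8 and 42.8 CPM in normal skin. It was at 143, 107 and 111 CPM in acellular and 99.3, 126 and 105 CPM in HDB wounds of 10 mm. The 15 mm samples were at 43.5, 72.8 and 99.6 CPM in the acellular and 97.1, 69.5 and 91.8 CPM in the HDB group. All wound samples lay above normal skin except acellular 15 mm replicate 1, which had the second lowest value of the 15. The log2 fold change was 0.91 (SE 0.212, adjusted p = 0.00939), lost only without normal replicate 3. Grem1 ranged from 1.93 to 15.8 (median 7.91) CPM in wounds and did not pass.

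Of the 2 matrix products, Tgfbi fell. It was at 440.2, 696 and 643 CPM in normal skin, 364, 351 and 287 CPM in acellular and 304, 372 and 304 CPM in HDB wounds of 10 mm. With acellular beads, 15 mm wounds were at 69.3, 186 and 353 CPM, and with HDB they were at 331, 275 and 329.6 CPM. All 12 wound samples lay below normal skin, and the lowest was acellular 15 mm replicate 1. The log2 fold change was -1.04 (SE 0.299, adjusted p = 0.0217), which did not pass without normal replicate 2 or 3. Bmp1, the protease that matures procollagen and cleaves chordin, ranged from 72.8 to 150.1 (median 108) CPM in wounds and was at 90.5, 140.0 and 92.5 CPM in normal skin.

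Among the receptor Smads, Smad1 rose and Smad3 fell. Smad1 (chr8:79338395-79399428), which carries the BMP signal, was at 42.4, 41.4 and 42.7 CPM in normal skin. It was at 70.95, 69.5 and 64.01 CPM in acellular and 50.9, 64.7 and 66.9 CPM in HDB wounds of 10 mm. In 15 mm wounds it was at 79.3, 69.4 and 51.6 CPM with acellular beads and 60.3, 54.3 and 71.3 CPM with HDB. No wound sample came as low as the normal ones, and the log2 fold change was 0.61 (SE 0.130, adjusted p = 0.00633). The 4 group estimates lay close together, between 0.53 and 0.69.

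Smad3, which carries the TGF-beta and activin signal, was at 73.7, 62.3 and 66 CPM in normal skin. It was at 25.6, 34.3 and 51.3 CPM in acellular and 58.01, 22.8 and 38.7 CPM in HDB wounds of 10 mm. At 15 mm, its acellular samples were at 37.2, 56.2 and 37.2 CPM and its HDB samples at 44.3, 54.02 and 33.8 CPM. All 12 wound samples lay below normal skin, but with a wide spread, and the log2 fold change was -0.72 (SE 0.245, adjusted p = 0.043). With the replicate number as a block it was -0.71 (adjusted p = 0.0682) and did not pass. It passed in 6 of the 15 fits that left out 1 sample.

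Smad2, the partner of Smad3, was at 50.4, 56.5 and 52.8 CPM in normal skin. It was at 72.7, 61.2 and 64.7 CPM in acellular and 55.05, 61.99 and 60.5 CPM in HDB wounds of 10 mm. In the larger wounds, the values were 97.7, 77.02 and 62.3 CPM with acellular beads and 61.6, 55.5 and 52.7 CPM with HDB. Smad5, the BMP Smad with the highest count, was at 122, 118 and 131 CPM in normal skin. It was at 140.0, 142 and 154 CPM in acellular and 136, 133 and 143 CPM in HDB wounds of 10 mm. The 15 mm samples were at 234, 156 and 148 CPM in the acellular and 146, 133 and 137 CPM in the HDB group. All 12 wound samples were above normal skin for Smad5, yet the log2 fold change of 0.27 (SE 0.119, adjusted p = 0.0967) did not pass. Over all wounds, Smad5 and Smad2 both passed upward without acellular 15 mm replicate 1 and without replicate 3 of that group. Both Smads passed in acellular 15 mm wounds, Smad2 at 0.57 (SE 0.144, adjusted p = 0.0139) and Smad5 at 0.54 (SE 0.148, adjusted p = 0.0189). With the transcript length trend removed neither passed, at an adjusted p of 0.0783 for Smad2 and 0.0639 for Smad5. Without acellular 15 mm replicate 1, both still passed but were smaller, at 0.39 for Smad2 and 0.30 for Smad5. Smad4, the shared partner, did not pass at 0.02 (SE 0.0866, adjusted p = 0.854), and Smad9 ranged from 1.999 to 4.38 (median 3.69) CPM in wounds.

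The inhibitory Smads are made in response to the pathway and damp it. Smad6 was at 7.24, 8.64 and 9.93 CPM in normal skin. It was at 10.96, 7.81 and 11.1 CPM in acellular and 9.35, 7.91 and 7.05 CPM in HDB wounds of 10 mm. With acellular beads, 15 mm wounds were at 31.97, 12.5 and 9.77 CPM, and with HDB they were at 13.4, 10.2 and 9.32 CPM. Its rise in acellular 15 mm wounds, 1.07 (SE 0.368, adjusted p = 0.0447), rested on replicate 1 and was 0.37 without it. Smad7 was at 13, 14.5 and 15.6 CPM in normal skin. It was at 18.1, 10.7 and 14.7 CPM in acellular and 11.4, 8.72 and 12.2 CPM in HDB wounds of 10 mm. At 15 mm, its acellular samples were at 38.5, 22.8 and 13.2 CPM and its HDB samples at 13.9, 14.3 and 17.7 CPM. It did not pass with all samples in edgeR, was called higher in acellular 15 mm wounds by DESeq2 and without replicate 3, and its highest value was again in acellular 15 mm replicate 1, the library with the high hair shaft markers. The part of hair shaft content in these 2 genes was not tested.

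Id2 rose in every wound group. Id proteins hold back differentiation by binding partners of basic helix-loop-helix factors. Id2 (chr12:25093799-25096092) was at 38.4, 30.7 and 32.9 CPM in normal skin. It was at 63.02, 61.5 and 55.01 CPM in acellular and 43.2, 64.1 and 57.4 CPM in HDB wounds of 10 mm. In 15 mm wounds it was at 60.2, 51.1 and 45.3 CPM with acellular beads and 60.4, 49.2 and 83.8 CPM with HDB. All 12 wound samples were above all 3 normal samples, with a log2 fold change of 0.76 (SE 0.164, adjusted p = 0.00647), a 1.70-fold difference. It passed in each group on its own, at 0.82 and 0.69 in acellular and HDB wounds of 10 mm and 0.62 and 0.92 in those of 15 mm, with adjusted p of 0.0169, 0.0413, 0.0339 and 0.0306. Each of these 4 calls was lost without normal replicate 2 and without normal replicate 3. The call in acellular 10 mm wounds held in 3 of the 6 fits that left out a sample of the groups compared, and each of the other 3 in 1 of 6. With the replicate number as a block only the acellular 10 mm call held.

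Id4 was at 41.6, 41.8 and 52.5 CPM in normal skin, 90.5, 30.1 and 46.2 CPM in acellular and 34.4, 31.2 and 34.6 CPM in HDB wounds of 10 mm. In the larger wounds, the values were 134, 207 and 34.6 CPM with acellular beads and 124, 52.9 and 104 CPM with HDB. High and low values occurred within the acellular 15 mm group, and the log2 fold change over all wounds was 0.59 (SE 0.436, adjusted p = 0.315). Id1 and Id3 ranged from 35.1 to 90.9 (median 63.4) and 40.1 to 112 (median 56.1) CPM in wounds, and neither passed. DESeq2 called Id3 lower in HDB 10 mm and Id4 higher in acellular 15 mm wounds, and Id1 passed upward in acellular 10 mm wounds with only the groups compared.

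**Figure D2:**
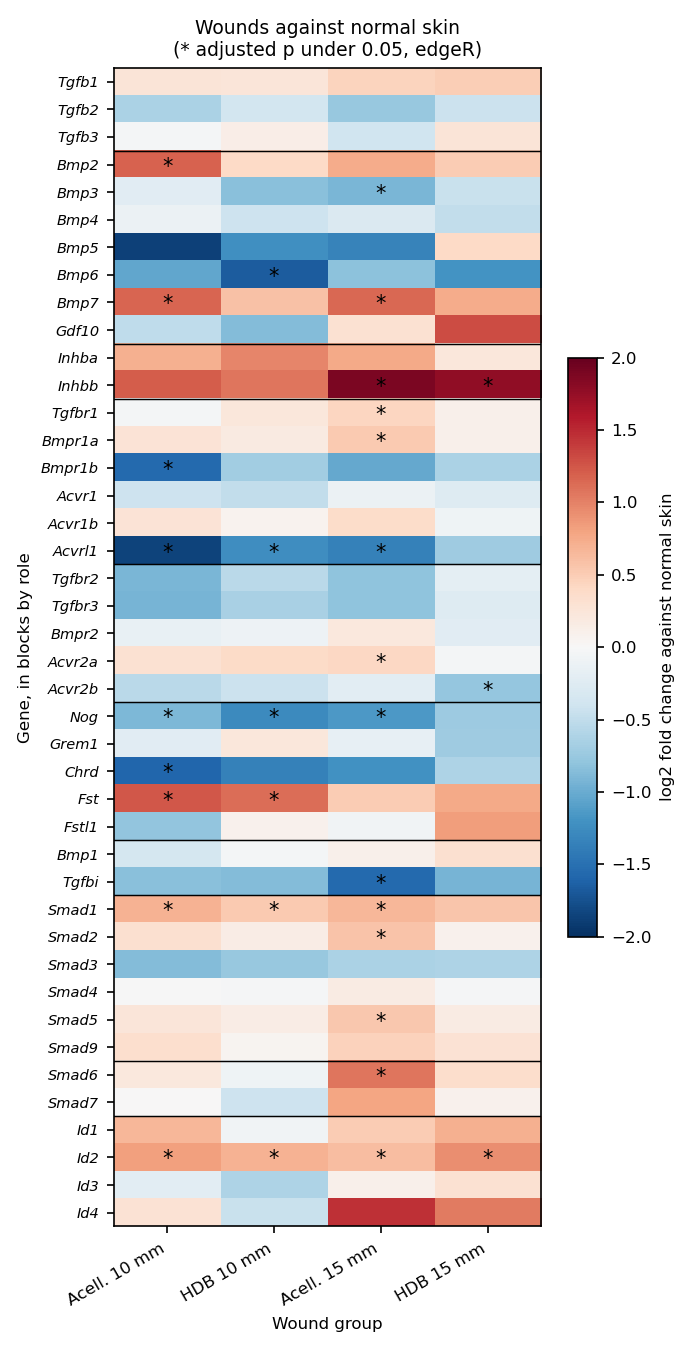
Log2 fold change of the tested members in each wound group against normal skin, by role. Each cell of the map is 1 gene in 1 wound group, red for higher and blue for lower than normal skin on a linear colour scale. A star marks an adjusted p under 0.05, lines part the roles, and the 4 groups share the normal samples. Id2 passed in all 4 groups, and Acvrl1, Nog and Smad1 in 3.

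By group, the share of members that changed stayed near the background. In acellular 10 mm wounds 9 members changed, 5 up and 4 down, which is 21.4% beside 20.3% of all genes. In acellular 15 mm wounds 14 changed, 10 up and 4 down, which is 33.3% beside 30.2%. In HDB 10 mm wounds 6 changed, 3 in each direction, which is 14.3% beside 12.3%. In HDB 15 mm wounds 3 changed, 2 up and 1 down, which is 7.14% beside 5.18%. Over the 4 groups, 20 members passed at least once, 12 upward and 8 downward, and none passed in both directions. That is 47.6% of the members, beside 38.9% of all genes called at least once (21.4% upward and 17.5% downward). Id2 passed in all 4 groups, Acvrl1, Nog and Smad1 in 3, Bmp7, Inhbb and Fst in 2, and 13 members in 1. These 32 calls were unequal in stability. In the 6 fits that left out a sample of the groups compared, 6 of them always held (Acvrl1 in acellular 10 mm wounds, and Bmp7, Inhbb, Nog, Smad1 and Smad2 in acellular 15 mm wounds). A further 14 held in at most 1 of the 6, among them Nog in acellular 10 mm, Smad1 and Fst in HDB 10 mm and Inhbb in HDB 15 mm wounds. With the replicate number as a block, 13 of the 32 were lost.

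The counts by group changed with the samples fitted. Without acellular 15 mm replicate 1, the calls of Bmp3, Bmpr1a, Acvr2a, Smad6 and Id2 were lost in that group, and 12 members passed (28.6%, beside 23% of all genes). When only acellular 15 mm wounds and normal skin were fitted, none of the 14 calls passed, beside 6.57% of all genes. In the same kind of fit 21 members passed for acellular 10 mm wounds, which is 50%, beside 42% of all genes. For HDB wounds there were 15 at 10 mm, which is 35.7% beside 20.2%, and 12 at 15 mm, which is 28.6% beside 22.9%. The members' share exceeded that of all genes most in this HDB 10 mm fit, by 15.5 percentage points.

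Other genes of the pathway were taken from lists of names made together with the set, and their calls are to be read beside the same background of 30.9%. The list counts rest on the 3 normal samples, and some moved when 1 of them was left out, but so did the background, to 16.2% without normal replicate 1, 15.4% without replicate 2 and 11.9% without replicate 3. Of 13 genes for latent TGF-beta storage and activation, 7 rose and 1 fell, with a median log2 fold change of 0.42. The 8 calls became 3 without normal replicate 1 or 2 and 2 without normal replicate 3. Fbn2, a fibrillin of developing matrix, was at 0.562, 0.737 and 0.805 CPM in normal skin and ranged from 3.54 to 64.5 (median 13.5) CPM in wounds, a log2 fold change of 4.44 (SE 0.885, adjusted p = 0.0049). Thbs1, thrombospondin 1, which can activate latent TGF-beta, was at 70.9, 46.1 and 41.5 CPM in normal skin and ranged from 72.6 to 832 (median 167) CPM in wounds. Its log2 fold change was 2.01 (SE 0.605, adjusted p = 0.0261), and it did not pass when any 1 normal sample was left out.

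Sostdc1, a BMP and Wnt antagonist of the skin (also called ectodin or Wise), rose. It was at 34.9, 26.9 and 25.3 CPM in normal skin. In 10 mm wounds it was at 135, 118 and 106 CPM with acellular beads and 96.5, 139 and 128 CPM with HDB. At 15 mm it was at 71.5, 87.2 and 92.8 CPM with acellular beads and 107, 62.6 and 85.7 CPM with HDB. Wound and normal samples did not overlap, and the log2 fold change was 1.80 (SE 0.185, adjusted p = 0.000333). Of the 9 other antagonists tested it was the 1 that rose, and 2 fell, with a median of -0.04.

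Of 13 intracellular regulators 3 rose and 2 fell, with a median of -0.07. The 5 calls became 2 without normal replicate 3. Tgif1, a repressor that binds Smads, was at 24.6, 23.4 and 23.9 CPM in normal skin and ranged from 44.8 to 73.6 (median 54.5) CPM in wounds (log2 fold change 1.27, SE 0.167, adjusted p = 0.00112). Skil (SnoN), another Smad repressor, was at 40.7, 36.1 and 36.2 and ranged from 42.3 to 98.9 (median 55.2) CPM (log2 fold change 0.68, SE 0.169, adjusted p = 0.0121), and did not pass without normal replicate 2 or 3. Of 7 other receptors and coreceptors 2 fell and none rose, with a median of -0.88. They were Eng, given above, and the scarce Amhr2 at 6.04, 4.42 and 5.30 CPM in normal skin and from 0.646 to 2.46 (median 1.51) CPM in wounds (log2 fold change -1.92, SE 0.336, adjusted p = 0.00296). Of 8 other ligands tested, 1 fell and none rose, with a median of -0.13. It was Mstn, the muscle growth inhibitor myostatin, at 248, 292 and 295 CPM in normal skin and from 0.531 to 148 (median 21.1) CPM in wounds (log2 fold change -2.94, SE 0.999, adjusted p = 0.0421). Its call held in 7 of the 15 fits that left out 1 sample, and was lost in the blocked fit (adjusted p = 0.0601). Skeletal muscle markers moved with Mstn: their summed level was 548 to 31097 CPM in wounds and 43417 to 53139 CPM in normal skin, with none of the 7 at 0, and their part in the fall was not tested.

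Response genes of both branches were mixed. Of 14 TGF-beta response genes 6 rose and 1 fell, while their median log2 fold change was -0.34. The collagens Col1a1, Col1a2 and Col3a1 on it are also fibroblast markers, and Ltbp2, Skil and Pmepa1 are also on the lists above. The 7 calls became 4 without normal replicate 2 and 3 without normal replicate 3. Junb, a component of the AP-1 transcription factor, was at 62.2, 62.1 and 48.2 CPM in normal skin and ranged from 78.2 to 292 (median 145) CPM in wounds (log2 fold change 1.40, SE 0.229, adjusted p = 0.00223). Snai2 (Slug), a factor of migrating keratinocytes, was at 20.1, 18.3 and 14.9 CPM and ranged from 28.98 to 53.2 (median 44) CPM (log2 fold change 1.26, SE 0.202, adjusted p = 0.00197). Of 14 BMP response genes 3 rose and 1 fell, with a median of 0.52, and 6 of the 14 are members described above. The 4 calls became 2 without normal replicate 1 or 3 and 1 without normal replicate 2. Msx2, a follicle transcription factor, was at 1.76, 2.01 and 2.21 CPM in normal skin and ranged from 3.65 to 213 (median 11.01) CPM in wounds (log2 fold change 3.13, SE 0.964, adjusted p = 0.0287), with the highest value in acellular 15 mm replicate 1, and it did not pass when any 1 normal sample was left out. Msx2 is itself on the hair shaft list. Runx2 was at 6.39, 5.36 and 5.37 CPM and ranged from 8.997 to 32.3 (median 12.5) CPM (log2 fold change 1.27, SE 0.307, adjusted p = 0.0108), with its highest value in the same library. It did not pass without normal replicate 2 or 3.

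**Figure D3:**
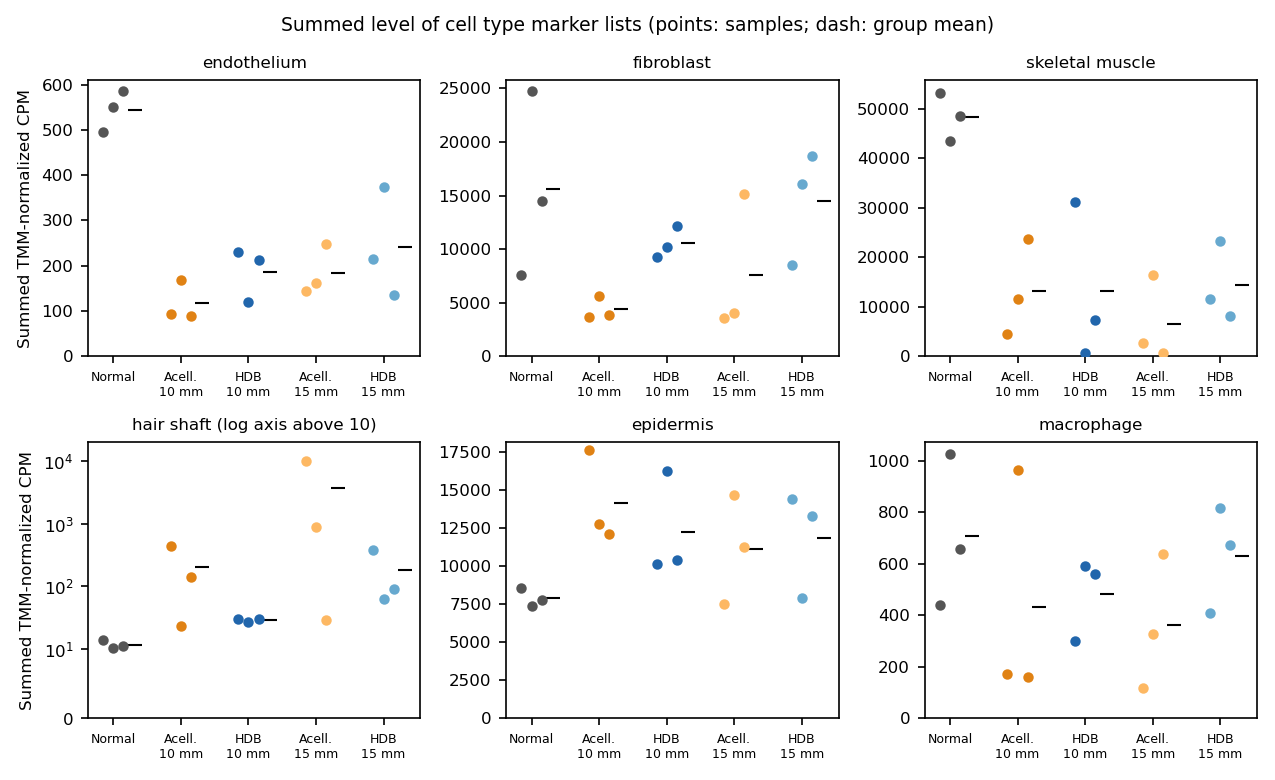
Summed TMM-normalized CPM of 6 of the marker lists for skin cell types, by group (the hair shaft axis is logarithmic above 10 CPM), with points for the 3 samples and a dash for the group mean. Endothelial and skeletal muscle markers are highest in normal skin, and hair shaft markers reach 10097 CPM in 1 acellular 15 mm sample.

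Other marker lists were counted in the same comparison, where 30.9% of all genes were called. Fibroblast markers summed to 3537 to 18737 CPM in wounds and 7589 to 24732 CPM in normal skin, with 2 of 8 lower. Epidermal markers summed to 7492 to 17613 and 7366 to 8545 CPM, with 3 of 6 higher and 2 lower. Macrophage markers summed to 119 to 963 and 440.4 to 1026 CPM, with 4 of 6 lower, and adipocyte markers to 308 to 4106 and 2143 to 4501 CPM, with 3 of 5 lower. The 5 T cell markers tested summed to 3.40 to 37.5 and 18.1 to 24.2 CPM, and none passed. Of the 9 hair shaft markers 3 were higher, and Krt34 and Krt86 were at 0 in at least 1 wound sample. In normal skin Krt81, Krt83 and Krt86 were at 0 in every sample, and Krt34 was at 0, 0 and 0.0671 CPM. The part of these cell types in the members' changes was not tested.

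The second question was whether MSC-laden beads changed the pathway compared with empty beads. By edgeR, no member passed in 10 mm wounds (0 of 42, beside 0% of all genes), where 3 had an unadjusted p under 0.05 (7.14%, beside 3.53% of all genes). DESeq2 also called none, beside 0.111% of all genes. The median log2 fold change of HDB over acellular was -0.08 for the members and -0.01 over all genes. The groups did not overlap for 5 members. Fstl1 and Bmpr1b were higher with HDB, 2 of 42 beside 4.53% of all genes, and Bmp2, Bmp3 and Bmp7 were lower, 3 of 42 beside 6.47%. Fstl1, which was at 165, 252 and 173 CPM in acellular and 415, 269 and 396 CPM in HDB wounds, had a log2 difference of 0.87 (SE 0.386, adjusted p = 1). Bmp7, at 85.97, 72.05 and 74.1 CPM with acellular beads and 43.8, 52.8 and 59.1 CPM with HDB, had a difference of -0.58 (SE 0.261, adjusted p = 1).

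In 15 mm wounds no member passed by edgeR either (0 of 42, beside 2.93% of all genes), with 12 at an unadjusted p under 0.05 (28.6%, beside 23.2% of all genes). DESeq2 called 6, all lower with HDB: Acvr1b, Acvr2a, Acvr2b, Bmpr2, Smad2 and Tgfbr1. That is 14.3% of the members, beside 14.7% of all genes by DESeq2. With the replicate number as a block no member passed, beside 1.16% of all genes. HDB and acellular samples did not overlap for 6 tested members, all lower with HDB. That is 6 of 42, beside 11.7% of all genes lower without overlap. These were 4 receptors and 2 Smads. Acvr2a was at 85.9, 85.7 and 63.1 CPM in acellular and 61.5, 59.7 and 50.99 CPM in HDB wounds, a log2 difference of -0.45 (SE 0.143, adjusted p = 0.0977). Acvr2b was at 26.9, 34.6 and 28.2 CPM with acellular beads and 18.9, 23.4 and 18.5 CPM with HDB (log2 fold change -0.56, SE 0.183, adjusted p = 0.0995). Bmpr2 was at 213, 207 and 153 CPM with acellular beads and 146, 132 and 149 CPM with HDB (log2 fold change -0.43, SE 0.129, adjusted p = 0.085). Tgfbr1 was at 83.8, 85.5 and 84.7 CPM with acellular beads and 54.9, 76.5 and 70.4 CPM with HDB (log2 fold change -0.33, SE 0.125, adjusted p = 0.143).

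The 2 Smads were Smad2 and Smad5. Smad2 was at 97.7, 77.02 and 62.3 CPM in acellular and 61.6, 55.5 and 52.7 CPM in HDB wounds (log2 fold change -0.48, SE 0.144, adjusted p = 0.0834). Smad5 was at 234, 156 and 148 CPM with acellular beads and 146, 133 and 137 CPM with HDB (log2 fold change -0.37, SE 0.148, adjusted p = 0.16). Without acellular 15 mm replicate 1, the library that stood apart, the differences were -0.30 for Smad2 and -0.13 for Smad5, and those of the 4 receptors lay between -0.63 and -0.34. When each sample's own trend of level with transcript length was removed before testing, the differences were 0.025 for Bmpr2, now on the other side of 0, -0.17 for Smad2, -0.13 for Smad5, -0.15 for Tgfbr1, -0.28 for Acvr2a and -0.61 for Acvr2b. Over all genes, the calls at 15 mm went from 450 to 0 with the trend removed.

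The 15 mm count by edgeR changed when 1 library was left out. Without acellular 15 mm replicate 3, 12 members passed, 7 lower with HDB (Acvr1b, Acvr2a, Bmpr1a, Bmpr2, Smad2, Smad5 and Smad7) and 5 higher (Fstl1, Tgfb3, Tgfbi, Tgfbr2 and Tgfbr3). That is 28.6% of the members, beside 14.9% of all genes in the same fit. Without any other sample of the 2 groups none passed, beside 0.979% of all genes without acellular replicate 1, 4.19% without acellular replicate 2 and 0% without each HDB sample. Gdf15, which was not tested, was at 0.0567, 0.233 and 0.159 CPM in acellular and 0.400, 0.303 and 0.508 CPM in HDB wounds of 15 mm, under 1 CPM in every sample.

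Over both sizes no member passed by edgeR (0 of 42, beside 0% of all genes), with 10 at an unadjusted p under 0.05 (23.8%, beside 15.8% of all genes), and DESeq2 called Fstl1 alone, beside 2.94% of all genes. Its estimates were above 0 at each size, and at 15 mm it was at 203, 227 and 537 CPM in acellular and 412, 719.9 and 685 CPM in HDB wounds. The groups overlapped there through acellular replicate 3. The log2 difference was 0.91 (SE 0.386, adjusted p = 0.182) at 15 mm and 0.89 (SE 0.273, adjusted p = 0.261) over both sizes, and 1.18 (adjusted p = 0.0486) without acellular 15 mm replicate 3, when Fstl1 and Smad2 were the 2 members that passed over both sizes, beside 1.47% of all genes. At 15 mm alone, without that library, the Fstl1 difference was 1.496 (SE 0.344, adjusted p = 0.0228). It was 0.67 (adjusted p = 0.429) without acellular replicate 1 and 0.71 (adjusted p = 0.314) without acellular replicate 2. Fibroblast markers moved the same way as Fstl1: all 8 had estimates above 0 at both sizes, with medians of 1.12 at 10 mm and 0.91 at 15 mm, and none passed. Their summed level was 3651 to 5623 CPM in acellular and 9252 to 12182 CPM in HDB wounds of 10 mm, and 3537 to 15176 and 8550.2 to 18737 CPM in those of 15 mm. None of the genes on the other marker lists passed. All 9 hair shaft markers had estimates below 0 at both sizes, with medians of -5.51 at 10 mm and -4.83 at 15 mm. Their summed level was 23.2 to 439 CPM in acellular and 27.2 to 30.2 CPM in HDB wounds of 10 mm, and 28.6 to 10097 and 62.2 to 382 CPM in those of 15 mm, so the groups overlapped. The remaining 6 lists had medians between -0.07 (skeletal muscle) and 1.5 (adipocyte) at 10 mm and between 0.32 (epidermis) and 1.29 (skeletal muscle) at 15 mm, where macrophage markers were at 0.79. The part of fibroblast content in the level of Fstl1, and of the other cell types in the members lower with HDB, was not tested. None of the other pathway lists had a call with HDB at either size.

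**Figure D4:**
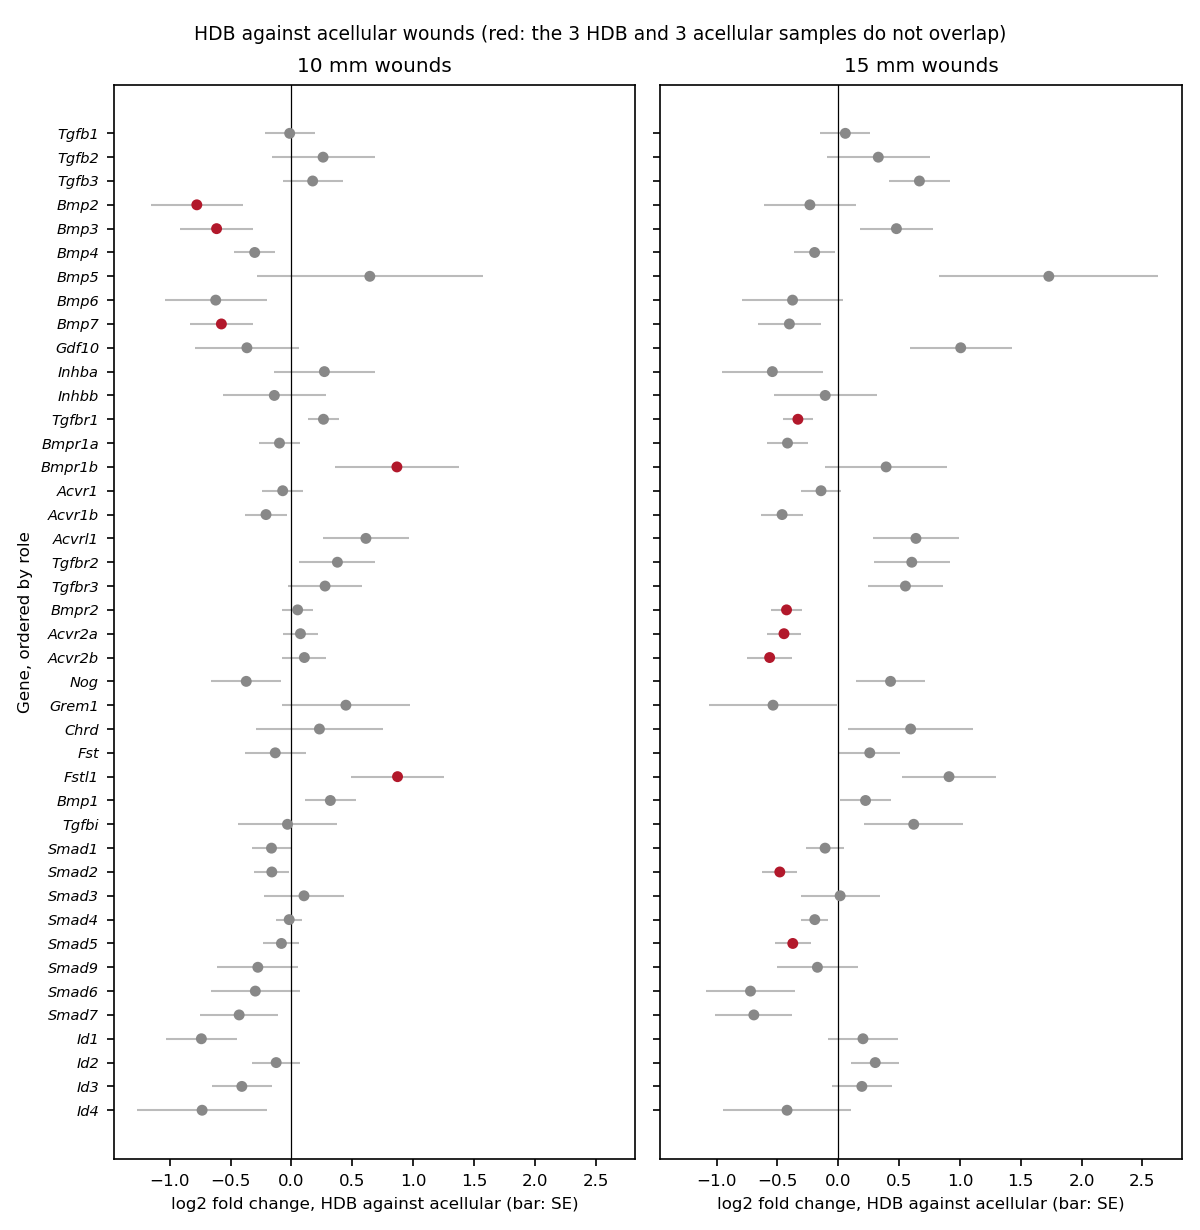
Log2 fold change of HDB over acellular wounds for the tested members at 10 mm and 15 mm, on 1 shared axis, with bars of 1 SE and red points where the samples of the 2 groups do not overlap. No member passed at an adjusted p under 0.05 by edgeR, and at 15 mm the 6 members whose samples did not overlap lie between -0.56 and -0.33.

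Whether the effect of the MSC-laden beads differed between wound sizes was tested by the interaction of treatment and size. No member passed by edgeR (0 of 42, beside 0% of all genes), and 7 had an unadjusted p under 0.05 (16.7%, beside 13.4% of all genes). DESeq2 called Tgfbr1, beside 6.55% of all genes. Its difference of 0.26 at 10 mm and -0.33 at 15 mm gave an interaction of -0.60 (SE 0.177, adjusted p = 0.174) by edgeR. In 10 mm wounds Tgfbr1 was at 55.8, 62.7 and 64.2 CPM with acellular beads and 73.9, 63.8 and 81.5 CPM with HDB, and these groups overlapped. Counts were also simulated for all 15 samples, with 1 mean and 1 spread per gene shared by the 5 groups. In them, 32% of 200 genes changed by 1 log2 unit in HDB 15 mm wounds were called against acellular 15 mm wounds. Of 200 genes changed by 2 units, 78.5% were called. Acellular 15 mm wounds, whose replicates resembled each other least, were not given a spread of their own, so these rates may not hold for this comparison.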

How the data were processed

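Bulk RNA of mouse skin was sequenced in 15 samples, 3 in each of 5 groups. The deposited values are estimated counts per gene, made by the authors without normalization, and 11.4% of them had decimals. The submitters' processing notes name HISAT2 2.0.4, Bowtie2 2.2.5, RSEM 1.2.12 and build GRCm38.p6, without their roles. Reads shared by near-identical genes are split by such estimates, and strand is not given in the sources used here. The counts were rounded to whole numbers and columns were assigned to samples from their names.

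In R 4.3.3, edgeR 4.0.16 was applied to all samples at once, with 1 mean per group, TMM normalization and filterByExpr, and genes were tested by quasi-likelihood. Benjamini-Hochberg adjustment covered 15369 genes, and calls needed an adjusted p under 0.05. Compared were HDB and acellular wounds, per size and over the sizes, the interaction of treatment and size, each wound group against normal skin, and the mean of the 4 wound groups against normal skin. The SE was taken as |log2 fold change| over the root of the F statistic. Levels per kilobase used the longest GENCODE M21 transcript, and log2 CPM for correlations used a prior count of 2. The members and all lists were chosen with earlier results of these data known. Genes described in full were, in each role, up to 3 members called against normal skin with the smallest adjusted p, and the member with the highest count. For other pathway lists they were up to 2 called genes without overlap and with the largest change. Fstl1, Acvr1b and Tgfbr1 with HDB, and the genes of the 4 promoters, were singled out after their values were seen.

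Replicate numbers were checked for pairing by correlating deviations from group means. Same-numbered samples of acellular and HDB 15 mm wounds deviated together (r of 0.397, 0.167 and 0.183) so a replicate block was also fitted, over all groups, while the values given are without it unless stated. The labels do not say that samples were paired. No other pair of groups had every r over 0.1. Alternatives were DESeq2 1.42.0, no filter, a filter of 50 counts on average, a replicate block, removal of a trend with transcript length, only the groups compared, and leaving out each sample. The scripts were tested on simulated data in which all groups shared 1 spread per gene. For acellular 15 mm wounds against normal skin, 27.0% of 200 genes changed by 1 log2 unit were called and 80.5% of those changed by 2.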

Additional observations from a re-analysis of the deposited data

How the results depend on the processing

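Of 72 single fold changes followed, none changed direction when 1 sample was left out (669 values, of which 499 kept their side of the threshold). The 72 were followed because they were called, did not overlap between HDB and acellular samples, or were singled out after they were seen. A change of direction was therefore unlikely from the start. Under the other settings 405 of 476 values kept it, and 2 changed direction: Bmpr2 at 15 mm, HDB over acellular, was -0.43 and became 0.025 with the transcript length trend removed and 0.036 with the trend removed and the replicate block. The count of members called moved by over 1.5 times as follows. DESeq2 called 6 at 15 mm, 1 over both sizes and 1 for the interaction, where edgeR called 0. Against normal skin DESeq2 called 16 for acellular 10 mm, then 12 and 10 for HDB wounds of 10 mm and 15 mm. These are 38.1%, 28.6% and 23.8% of the members, beside 33%, 24.8% and 18.7% of all genes. Without a filter, 5 were called in acellular 10 mm wounds, which is 11.6%, beside 14.4% of all genes. With the replicate block, alone or with the length trend removed, 3 (7.14%) were called in HDB 10 mm and 0 in HDB 15 mm wounds against normal skin (beside 7.72% and 1.54% of all genes with the block alone and 7.41% and 1.81% with both). The 15 mm contrast of HDB with acellular wounds stayed at 0. With only the groups compared, 21 and 0 were called for acellular wounds of 10 mm and 15 mm, and 15 and 12 for HDB wounds. That is 50% and 0% of the members, beside 42% and 6.57% of all genes, and 35.7% and 28.6%, beside 20.2% and 22.9%.

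Leaving out 1 sample gave 0 to 0 members for HDB against acellular at 10 mm, 0 to 12 at 15 mm (12 without acellular replicate 3), 0 to 2 over both sizes and 0 to 0 for the interaction. Against normal skin it gave 1 to 5 and 6 to 22 for acellular wounds of 10 mm and 15 mm, 0 to 10 and 0 to 5 for HDB wounds, and 4 (without normal replicate 3) to 21 (without acellular 15 mm replicate 1) for all wounds. In the same fits, 5.8% of all genes stood beside the 1 (2.38% of the members) and 11.6% to 11.9% beside the 5 (11.9%) in acellular 10 mm wounds. In acellular 15 mm wounds it was 14.8% and 17.8% beside the 6 (14.3%) and 37.3% beside the 22 (52.4%). For HDB wounds, it was 0.501% to 2.92% beside the 0 and 17.5% beside the 10 (23.8%) at 10 mm. At 15 mm it was 0.218% to 0.861% beside the 0 and 8.61% beside the 5 (11.9%). Over the 78 fits against normal skin, the members' share of calls minus that of all genes was between -6.57 and 15.5 percentage points, with a median of 0.476. Over all genes, the 450 calls at 15 mm became 2174 by DESeq2, 199 without a filter, 695 with 50 counts on average, 179 with the block, and 0 with the length trend removed or only the groups compared. The causes were not tested. Fits left with 2 samples in a group take its spread from the other groups. Depth was even between samples, and counts were fewest for Gdf15, Bmp5, Bmpr1b, Smad9 and Nog, which averaged under 100.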
